A study of Mus musculus with 5 samples.

Results

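Ltf-high immature neutrophils were followed in the bone marrow of 5 mice by droplet-based single-cell RNA sequencing, 1 mouse for each of 5 days after transplantation of leukemia cells. A barcode counted as Ltf-high when it held at least 5 UMIs of Ltf and at least 5 of Ngp, fewer than 3 of Fcnb and none of Csf1r. It also had to hold at least 500 UMIs, with at most 10% of them from mitochondrially encoded genes. A UMI (unique molecular identifier) marks 1 captured RNA molecule. These limits were met by 7429 of the 29679 cells, namely 1201, 1260, 1344, 1755 and 1869 for day 0, day 3, day 6, day 9 and day 12, the order in which all values of the 5 libraries are given. The members were chosen by measured values, the UMIs of these 4 genes, so their levels describe the choice and are not findings.

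The study asked how normal marrow cells change while a B cell acute lymphoblastic leukemia grows in an immunocompetent host. All 5 animals were C57BL/6J mice of 8 weeks that were not irradiated, and each received 1000 BCR-ABL1 pre-B ALL cells through the tail vein. The day 0 mouse also carried these cells and was euthanized directly after the injection, so no library came from an untransplanted animal. Plugs from femurs and tibias were combined with cells freed from the crushed bones by collagenase and DNase I, and red cells were lysed. The cells were then cryopreserved and shipped frozen before 10x 3' v2 libraries were made. With 1 library for each day, the effect of the day, the mouse and the library cannot be told apart, and no test of a difference between days was possible. All intervals below cover counting error only.

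Neutrophils fill their granules in sequence while they mature in the marrow. Proteases such as elastase and myeloperoxidase are made first for the primary granules, lactoferrin (Ltf), neutrophilic granule protein (Ngp), lipocalin 2 (Lcn2) and cathelicidin (Camp) follow for the secondary granules, and gelatinases such as Mmp9 come later for the tertiary granules. Fcnb, the ficolin B gene, marks the early, still dividing precursors, Retnlg marks the later cells, and Csf1r, the receptor of colony stimulating factor 1, marks monocytes. The transcription factor C/EBPε is required for secondary granule genes in mice and humans.

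The DNA just before the start of the genes that define and order this stage is shown because these genes move from one to the next as the cells mature. Ltf (9:111019271-111042767, plus strand) and Ngp (9:110419747-110423012, plus strand) lie on the same stretch of chromosome 9 of GRCm38 as Camp (9:109847379-109849617, minus strand). From the end of Camp to the start of Ngp are 570 kb, from the end of Ngp to the start of Ltf 596 kb, and the 3 genes span 1.2 Mb. Retnlg (16:48872621-48874496) stands for the later cells and Mmp8 (9:7558456-7568485) for the gene with the largest ratio between Ltf-high and Fcnb-high cells. The gene positions are from GENCODE vM21. The flanks are on the plus strand and lie within the 250 bases before the RefSeq start in GRCm38.p6, with bases inside the GENCODE gene left out. Capitals mark matches to the letters TTNNGNAA on either strand, a core of C/EBP-type motifs.
Ltf flank chr9:111019042-111019270: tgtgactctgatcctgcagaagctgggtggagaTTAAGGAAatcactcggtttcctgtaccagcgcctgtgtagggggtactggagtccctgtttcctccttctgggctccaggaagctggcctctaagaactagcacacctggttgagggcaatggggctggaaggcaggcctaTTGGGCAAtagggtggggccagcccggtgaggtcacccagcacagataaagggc
Ngp flank chr9:110419558-110419746: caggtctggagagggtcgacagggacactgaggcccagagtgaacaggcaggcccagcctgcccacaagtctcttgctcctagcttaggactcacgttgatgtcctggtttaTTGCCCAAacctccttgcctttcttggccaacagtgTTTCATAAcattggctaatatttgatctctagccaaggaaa
Retnlg flank chr16:48872358-48872607: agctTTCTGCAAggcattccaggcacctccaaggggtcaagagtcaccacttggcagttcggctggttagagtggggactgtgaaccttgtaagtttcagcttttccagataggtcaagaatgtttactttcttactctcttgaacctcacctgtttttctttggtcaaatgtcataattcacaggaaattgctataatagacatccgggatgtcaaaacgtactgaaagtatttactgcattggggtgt
Mmp8 flank chr9:7558179-7558428: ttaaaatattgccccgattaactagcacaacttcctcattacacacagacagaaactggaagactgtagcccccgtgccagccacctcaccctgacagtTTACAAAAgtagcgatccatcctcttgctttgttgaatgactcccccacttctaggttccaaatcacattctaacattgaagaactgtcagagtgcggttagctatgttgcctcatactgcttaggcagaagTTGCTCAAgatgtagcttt
In the full 250 bases, Ltf held matches at -217 and -75, Ngp at -138, -102 and -11, Retnlg at -246, and Mmp8 at -151 and -19, counted from the RefSeq start. The motif was present before 9969 of all 27025 genes in the promoter table (36.9%). It was present before 12 of 19 secondary granule genes (63.2%) and 6 of 9 tertiary granule genes (66.7%), against 1 of 12 primary granule genes (8.33%), 11 of 24 late neutrophil genes (45.8%) and 5 of 22 cycling genes (22.7%). A match is a run of letters and not a measured binding site.

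The libraries held 33425695 to 43554233 UMIs in all barcodes and 4870 to 6944 cells after the limits on UMIs and mitochondrial genes. The depth of the median Ltf-high cell was 5141, 5080, 4760.5, 4322 and 4199 UMIs, and 939, 988, 981, 933 and 847 genes were detected in it. Of the 7429 barcodes, 35 sequences occurred in 2 or more libraries. Barcodes with at most 100 UMIs, which hold mainly free RNA, carried 18.6 to 30.3 Ltf UMIs and 167 to 210.5 Ngp UMIs per 10000. After each cell was thinned to 2000 UMIs, cells other than members with under 5% S100 content (a share defined below) still had an Ltf UMI in 26.1 to 39.6% and an Ngp UMI in 88.3 to 95.7%.

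The label was checked against the markers that the limits did not use. Lcn2, an iron-siderophore binding protein of secondary granules, had a UMI in 99.9 to 100% of Ltf-high cells. Ly6g, the surface antigen used to sort mouse neutrophils, had one in 88.6 to 91.5%, and Orm1, an acute phase glycoprotein, in 22.3 to 40%. At 2000 UMIs a cell, which left out 74, 94, 73, 103 and 135 shallower members, Ly6g was seen in 75.1 to 79.6% of members against 5.97 to 10.4% of the cells with under 5% S100 content. Those cells had median depths of 2659 to 5767 UMIs before thinning. Orm1 was seen in 11.6 to 22.4% against 0.701 to 1.65%, and Lcn2 in 97.5 to 99.7% against 58.5 to 72.1%. Ly6g and Orm1 were therefore far more frequent in Ltf-high cells than in the cells with under 5% S100 content, whereas Lcn2 was frequent in both. The part of free RNA in these shares was not tested. This comparison does not set Ltf-high cells apart from other neutrophils. The Fcnb-high cells described below held medians of 91.5 to 159 Lcn2 and 1 to 3 Orm1 UMIs, against 35 to 60 and 0 in members. Ly6g went the other way, with 1 to 2 against 3 to 5. These are raw counts, and the Fcnb-high cells were deeper, with median UMIs of 11807 to 12859.5 against 4199 to 5141.

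A minority of Ltf-high cells went against the label. S100a8 and S100a9, the subunits of calprotectin, are the most abundant transcripts of neutrophils, and together they made up a median of 44.7, 41.1, 40.6, 39.3 and 43.8% of the UMIs in cells with an S100 share of 20% or more. Another 25, 94, 92, 98 and 36 members from day 0 to day 12, or 345 in all, had a share under 20%, with medians of 11.8, 1.13, 1.5, 1.67 and 1.28%. These S100-low members were deeper than the rest, above all at the 4 later days, with median UMIs of 6762, 17774, 11884, 11719.5 and 13854, and just passed the Ltf limit with medians of 6 to 8 Ltf UMIs. They made up 2.08, 7.46, 6.84, 5.58 and 1.93% of members but 3.88, 21.2, 16.2, 13.4 and 5.8% of the members' summed UMIs. Of them, 91 held 3 or more UMIs of Cd79a, a B cell receptor subunit. A list of 15 B cell genes summed to 507, 1777, 2570, 4950 and 229.8 UMIs per 1000000 (CPM) in all members from day 0 to day 12, and to 436, 347, 1047, 799.6 and 163 CPM in the S100-high members. The sum still differed between days among S100-high members, with no gene of the list at 0 in any library. A list of 10 progenitor genes summed to 199, 288, 384, 429 and 250.1 CPM in all members and to 83.2, 87.3, 114, 124 and 75.4 CPM in the S100-high members. A list of 11 monocyte genes without Csf1r differed little between the 2 sets. It summed to 2211, 2700, 2974, 2827 and 2598 CPM in all members and to 2149, 2804, 2833, 2822 and 2570 CPM in the S100-high members. Of the S100-high members, 1021, 1086, 1180, 1555 and 1628 held 5 or more UMIs of this list. Of its 11 genes, 4 to 7 had a UMI in over 10% of S100-high members. Results are given below for all 7429 members and for the 7084 S100-high members. The limit of 20% was chosen after the shares had been seen, and 26, 31, 49, 58 and 16 members lay between 15 and 25%.

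**Figure D1:**
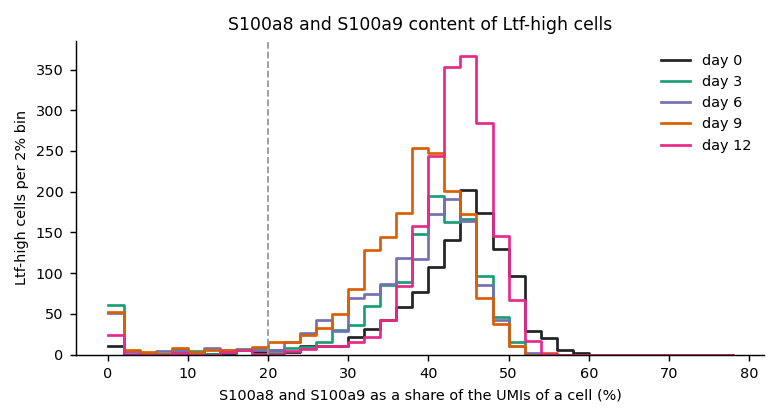
Number of Ltf-high cells per 2% bin (vertical axis) of the share of a cell's UMIs that came from S100a8 and S100a9 (horizontal axis), 1 line for each day, with the 20% limit dashed. Most cells lie around the medians of 39.3 to 44.7%, and a small group lies near 0, with 10 members below 5% at day 0 and 67 at day 3.

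Just inside the Ltf limit, at 5 or 6 UMIs, lay 69, 113, 112, 149 and 142 members from day 0 to day 12, with median S100 shares of 44.3, 30.2, 28.6, 36.3 and 43.2%. Just outside it, at 3 or 4 Ltf UMIs with the other limits met, lay 122, 289, 329, 354 and 293 cells, with median S100 shares of 27.9, 1.53, 2.24, 14.3 and 38.0%. At days 3 and 6 the median S100 share was thus far lower just outside the limit, while at day 12 it was near that of the cells just inside. Few cells lay near the Ngp limit, with 2 to 6 members at 5 or 6 Ngp UMIs.

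Ltf-high cells made up a larger share of the library at every later day than at day 0. The share was 19.2% at day 0 (exact binomial 95% interval 18.2 to 20.2), 25.9% at day 3 (24.6 to 27.1), 22.2% at day 6 (21.2 to 23.3), 25.3% at day 9 (24.2 to 26.3) and 33.6% at day 12 (32.3 to 34.8). The ratio to day 0 was 1.35 (95% interval 1.26 to 1.45) at day 3, 1.16 (1.08 to 1.24) at day 6, 1.32 (1.23 to 1.41) at day 9 and 1.75 (1.64 to 1.86) at day 12. Without the S100-low members the shares were 18.8, 23.9, 20.7, 23.9 and 32.9%. Day 12 stood apart from the other days in both counts. The limits are counts of UMIs and depend on depth: when cells were thinned to 2000 UMIs before the limits were applied, the ratios were 1.13, 1.01, 1.13 and 1.40. The share at day 6 was then 30.9%, about the same as the 30.7% of day 0.

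Ltf-high cells were set beside earlier and later neutrophils of the same libraries, which were chosen by UMIs of Fcnb, Ngp, Ltf and Retnlg. Fcnb-high cells (at least 5 UMIs of Fcnb and of Ngp, no Csf1r) numbered 398, 336, 304, 375 and 388 and made up 6.36, 6.9, 5.03, 5.4 and 6.97% of cells. Retnlg-high Ltf-low cells (at least 5 UMIs of Retnlg, fewer than 5 of Ltf and 3 of Fcnb, no Csf1r) numbered 1501, 1704, 2241, 2634 and 2281 and made up 24, 35, 37.1, 37.9 and 41%. Of Ltf-high cells, 78.5, 94, 94.9, 92.9 and 97.5% also held at least 5 Retnlg UMIs. Most Ltf-high cells were thus kept out of the Retnlg-high Ltf-low group by the Ltf limit alone. Median Retnlg UMIs were 64, 42, 19, 30.5 and 78 in that group against 13, 32, 29, 31 and 53 in Ltf-high cells. It was also shallower, with median UMIs of 2211 to 2996.5 against 4199 to 5141, and the Ltf limit is a raw count. The Retnlg-high Ltf-low group was mixed, since 28.6, 43.2, 48.5, 46.2 and 27.7% of it had an S100 share under 20%. The 3 groups together made up 49.5, 67.8, 64.4, 68.6 and 81.5% of all cells. Counting only cells with an S100 share of 20% or more, they made up 41.8, 50.1, 44.4, 48.9 and 69%, which put day 6 close to day 0 and left day 12 the highest. Within the 3 groups, Ltf-high cells made up 38.7, 38.2, 34.6, 36.8 and 41.2%. This share and their share of all cells were both highest at day 12, but the former was lowest at day 6 and the latter at day 0. Among cells of the 3 groups with an S100 share of 20% or more, Ltf-high cells made up 44.9, 47.8, 46.7, 48.8 and 47.8%, Fcnb-high cells 14.2, 12.6, 10.2, 9.48 and 9.28% and Retnlg-high Ltf-low cells 40.9, 39.6, 43.1, 41.7 and 43%. Ltf-high cells thus made up between 44.9 and 48.8% of the S100-high neutrophils at all 5 days, and the share of Fcnb-high cells was lower at each later day than at day 0.

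**Figure D2:**
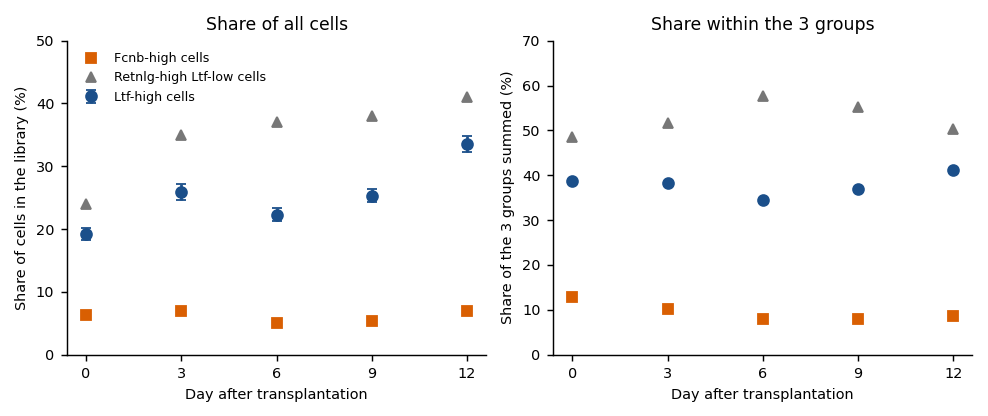
Share of all cells in each library (left, percent, with the exact binomial 95% interval for Ltf-high cells) and share of the 3 neutrophil groups summed (right, percent) against the day after transplantation, 1 library for each day. Ltf-high cells go from 19.2% of all cells at day 0 to 33.6% at day 12, while their share of the 3 groups stays between 34.6 and 41.2%.

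Levels of genes are given from here on as CPM, the UMIs of a gene summed over the members of a library per 1000000 summed UMIs of those members. Fold changes are log2 ratios of (CPM + 5) against day 0, for genes with at least 20 CPM in either library of a pair and without the 4 genes of the limits. In all members, at least 2-fold differences from day 0 were seen for 302 of 3316 genes at day 3 (9.11%), 134 of 3279 at day 6 (4.09%), 94 of 3227 at day 9 (2.91%) and 18 of 2865 at day 12 (0.628%). Of these, 284 (8.56%), 123 (3.75%), 78 (2.42%) and 8 (0.279%) were higher, and 18 (0.543%), 11 (0.335%), 16 (0.496%) and 10 (0.349%) were lower. In S100-high members the counts were 27 of 2793 genes (0.967%), 36 of 2882 (1.25%), 56 of 2957 (1.89%) and 19 of 2752 (0.69%). Of those, 10 (0.358%), 21 (0.729%), 35 (1.18%) and 8 (0.291%) were higher, and 17 (0.609%), 15 (0.52%), 21 (0.71%) and 11 (0.4%) were lower. Far fewer genes thus passed at days 3 and 6 once the S100-low members were left out. The median over all genes tested was 0.31, 0.32, 0.29 and 0.09 on the log2 scale for all members and 0.12, 0.19, 0.21 and 0.06 for S100-high members, and with trimmed mean (TMM) scaling it was -0.10, -0.10, -0.07 and -0.01 for all members. A log2 ratio close to these medians is no change relative to the other genes. The 4 comparisons share the day 0 library, so a single unusual library at day 0 would enter all of them.

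Secondary granule genes, the defining products of this stage, differed little between days. None of 19 tested members of the list of 24 (23 of them in the files) passed 2-fold at any day, with list medians of -0.19, -0.13, -0.17 and 0.12 on the log2 scale in all members and 0.07, 0.02, -0.05 and 0.15 in S100-high members. Camp, the most abundant of them after the S100 genes, measured 56975, 41675, 41707, 46504 and 49278 CPM from day 0 to day 12. Lcn2 measured 12390, 10827, 11315, 10879 and 8765 CPM and was lowest at day 12. Chil3, a chitinase-like lectin, measured 3937, 2738, 3588, 2985 and 2681 CPM, also with its lowest value at day 12. Orm1 measured 168, 105, 124, 117 and 83.1 CPM, or 174, 132, 145, 134 and 87.6 CPM in S100-high members, and of the marker genes it came closest to 2-fold, with a log2 ratio of -0.98 at day 12. It passed 2-fold there with a pseudocount of 1 (-1.01), TMM scaling (-1.07) or a total without the 20 highest genes (-1.04). Ly6g differed least, with 962, 1022, 980.2, 952 and 919.9 CPM. Ngp and Ltf, which the limits used, measured 30797 to 39080 CPM and 5699 to 6416 CPM. In S100-high members Lcn2 measured 12810, 13489, 13222, 12361 and 9257 CPM and Chil3 4058, 3392, 4127, 3394 and 2817 CPM. Lcn2, Chil3 and Orm1 were thus at their lowest at day 12 with and without the S100-low members, whereas Pglyrp1 (a peptidoglycan binding protein, 4149, 3852, 4019, 4184 and 4575 CPM) and Wfdc21 (a whey acidic protein, 10016, 7781, 8302, 8832 and 10987 CPM) were at their highest in all members.

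Tertiary granule genes were higher at the later days than at day 0. In S100-high members all 9 tested genes had a log2 ratio above 0 at every later day, with list medians of 0.73, 0.68, 0.49 and 0.80, above the median over all genes each time. Mmp25, a membrane-bound metalloprotease, lay under the 20 CPM needed, with 14 to 18.2 CPM. Mmp8, the neutrophil collagenase, measured 512, 1004, 1098, 1114 and 871 CPM in all members and 526, 1242, 1277, 1252 and 922 CPM in S100-high members from day 0 to day 12. Its day 0 value was the lowest, and its exact Poisson 95% interval there in all members was 495 to 529.7 CPM, against 851 to 890.4 CPM at day 12. Mmp9, gelatinase B, measured 505, 1006, 992, 1054 and 927 CPM in S100-high members. Both metalloproteases were lowest at day 0 with no overlap of the counting intervals, and Mmp8 passed 2-fold at days 3, 6 and 9 in S100-high members and at days 6 and 9 in all members. The latter call depended on the scaling, since the median log2 ratio of days 3, 6 and 9 in all members was 1.09 as reported, 0.67 with TMM scaling and 0.74 with a total without the 20 highest genes. Fpr2, a formyl peptide receptor, measured 211, 377, 341, 421 and 363 CPM, and Adam8, a metalloprotease of the cell surface, 75.9, 88.1, 85.2, 84.8 and 139 CPM. Adam8 stood out at day 12, whereas its values at the other later days lay close to day 0. In free RNA, Mmp8 measured 225, 538, 543, 550 and 538 CPM and Mmp9 217, 417, 472, 501 and 559 CPM. Both were thus lowest at day 0 there as well. The part of free RNA in the levels of the cells was not tested.

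Elane and Mpo, the best known primary granule genes, were low in S100-high members and higher in every library when the S100-low members were counted in. Elane, the neutrophil elastase gene, measured 295, 216, 326, 429 and 299.8 CPM in all members and 51.5, 36.6, 59.8, 76.3 and 52.7 CPM in S100-high members from day 0 to day 12. Mpo, myeloperoxidase, measured 128, 137, 216, 288 and 171 CPM and 34.3, 25.4, 45.5, 46.3 and 29.5 CPM, respectively. In S100-high members none of the 8 or 9 genes tested passed 2-fold at any day, and Mpo at day 9 was the 1 that did so in all members. Free RNA carried Elane at 764, 426, 451, 727 and 764 CPM and Mpo at 434, 282, 261, 436 and 366 CPM, more than S100-high members did. Srgn, the serglycin proteoglycan that packs granule proteases, was more abundant, with 306, 253, 278, 268 and 462 CPM, highest at day 12.

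Genes of later neutrophils differed from day 0 in both directions. Of 27 tested in S100-high members, 3 were at least 2-fold higher and 4 lower at day 3, 1 and 3 at day 6, 3 and 4 at day 9, and 1 and none at day 12. Retnlg, a resistin-like secreted protein, measured 7858, 10602, 10912, 11020 and 16436 CPM in all members from day 0 to day 12, with a log2 ratio of 1.06 at day 12, and the median cell held 13, 32, 29, 31 and 53 Retnlg UMIs. That ratio was 0.97 with TMM scaling and 1.01 with a total without the 20 highest genes. Free RNA carried Retnlg at 7830.1, 11470, 10355, 11498 and 19965 CPM, about the same level and order of days, and at 2000 UMIs a cell 69.6, 82.7, 89.5, 89 and 94.4% of the cells with under 5% S100 content had a Retnlg UMI against 90.7, 96.5, 97.1, 97.8 and 98.7% of members. The part of free RNA in the members' Retnlg was not tested. Ccl6, a chemokine of myeloid cells, measured 101, 273, 260.2, 279 and 158 CPM in S100-high members and was highest at days 3, 6 and 9. Stfa1, a stefin protease inhibitor of a family with near-identical copies whose reads may be shared, measured 27.9, 94.7, 51.9, 71.2 and 50.8 CPM. All 3 were lowest at day 0. Free RNA carried Ccl6 at 647, 999, 994, 1013 and 738 CPM, likewise lowest at day 0 and above the level in S100-high members. The genes that were lower were Trem1, Cxcl2, Cd14 and Dusp1, which are described with the days 3, 6 and 9 pattern below.

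Most receptors for growth factors and for homing had slightly higher values at later days, with no gene of 12 past 2-fold and list medians of 0.49, 0.53, 0.48 and 0.46 in S100-high members. Cxcr2, the receptor for neutrophil release from marrow, measured 50.9, 103, 97.1, 104 and 93 CPM, and Cxcr4, the retention receptor, 83, 113, 114, 113 and 117 CPM. Csf3r, the receptor of G-CSF, measured 65, 98.6, 98.5, 92 and 91 CPM. Each of these 3 was lowest at day 0, whereas Csf2ra, a subunit of the GM-CSF receptor, was highest there, with 127, 104, 105, 96.7 and 122 CPM. Cxcr2, Cxcr4 and Csf3r were lowest at day 0 in free RNA too, with Cxcr2 at 32.9, 76.1, 74.3, 80.7 and 73.1 CPM. Fpr1, a formyl peptide receptor, reached its highest level at day 12, with 43.1, 75, 75.7, 62.7 and 89.9 CPM. Of the NADPH oxidase, which makes the oxidative burst, none of the 7 genes passed 2-fold at any day. Its catalytic subunit Cybb measured 566, 757, 787, 923 and 622 CPM and its partner Cyba 2352, 2106, 2024, 2039 and 2398 CPM in S100-high members, Cybb lowest at day 0 and Cyba lowest at day 6.

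Transcription factors of neutrophil development varied little, apart from Klf2. Cebpe, the secondary granule factor, measured 329, 325, 341, 335 and 229.7 CPM in S100-high members from day 0 to day 12. Its level was lower at day 12, with a log2 ratio of -0.51, and similar at the other days. Spi1, the myeloid factor PU.1, measured 288, 371, 361, 334 and 265 CPM. Klf2, a factor of quiescence in leukocytes, measured 1167, 354, 364, 423 and 741 CPM in all members and 1195, 426, 402, 465 and 773 CPM in S100-high members. It was highest at day 0, lowest at days 3, 6 and 9 and in between at day 12, and was the 1 gene of 13 to pass 2-fold in S100-high members. Irf8, a monocyte and lymphoid factor, measured 18.9, 57.4, 55.5, 44.7 and 18.4 CPM in all members but 15.1, 23.1, 23.6, 30.3 and 9.56 CPM in S100-high members.

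Few Ltf-high cells were cycling by transcript. With 3 or more UMIs over 8 cycling genes after thinning to 2000 UMIs, 9.14, 7.2, 8.5, 7.08 and 6.69% of members counted as positive from day 0 to day 12, against 36.6 to 46.4% of Fcnb-high cells and 7.48 to 11.3% of Retnlg-high Ltf-low cells. Among S100-high members it was 8.83, 4.98, 6.65, 5.81 and 6.17%. The members' share was therefore far below that of the precursors. It was near that of the later group, but that group was mixed, as given above. Among S100-high cells of both groups, 7 of 22 cycling genes tested were at least 2-fold higher in Ltf-high cells in every library, and none was lower. The median log2 ratio of the cycling genes to the later group was 1.19 there, against -0.695 with all cells. The share of positive cells was not measured in S100-high cells of the later group. Against day 0, none of 22 cycling genes was 2-fold higher in S100-high members at any day. Hist1h2ae, a replication-dependent histone, was the 1 that was lower at days 3, 6 and 9, with 64.3, 12.8, 9.24, 19.1 and 41.2 CPM. Top2a, the topoisomerase of dividing cells, measured 47.1, 85.2, 80.2, 73.3 and 47.8 CPM in all members and 47.5, 34.8, 49.8, 49.4 and 36.9 CPM in S100-high members. The higher values of days 3, 6 and 9 in all members were not seen among S100-high members.

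**Figure D3:**
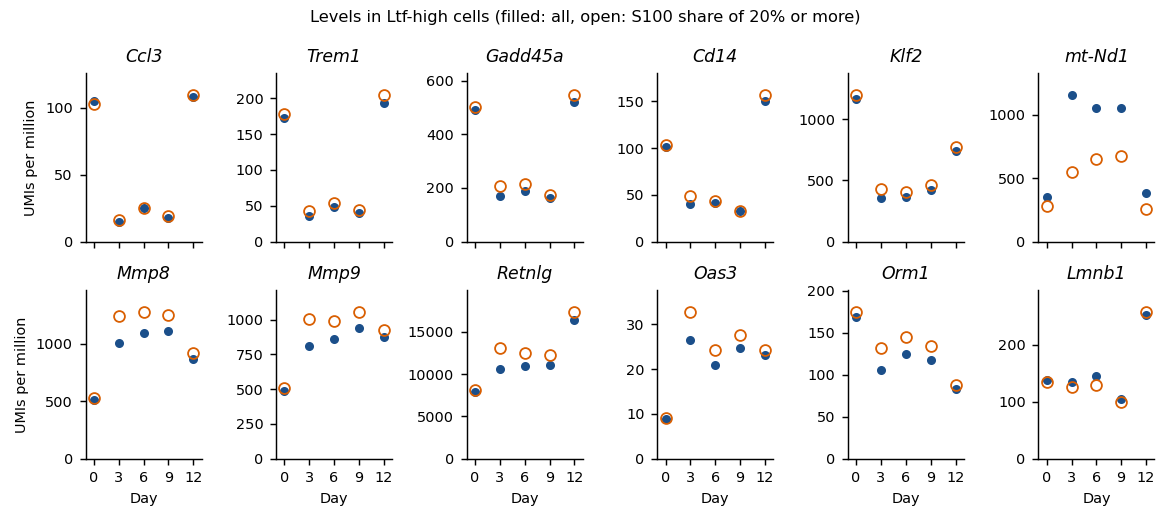
Level (CPM, vertical axes from 0) of 12 genes in the Ltf-high cells of each library against the day, with all members filled and S100-high members open, 1 point for each library. Ccl3, Trem1, Gadd45a and Cd14 are low at days 3, 6 and 9, Oas3 and Mmp8 are lowest at day 0, and Lmnb1 stands out at day 12.

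Several genes of the immediate-early response and of inflammation had lower values at days 3, 6 and 9 than at days 0 and 12. In all members, 7 of 3566 genes (0.196%) were at least 2-fold lower than day 0 at each of these 3 days and within 1.5-fold of day 0 at day 12, namely Ccl3, Trem1, Gadd45a, Atf3, Cd14, Gadd45g and Zfp622, a pattern that was looked for after the values had been seen. In S100-high members the same held for 6 of 3088 (0.194%), without Gadd45g. Ccl3, a chemokine of inflammation, measured 105, 15, 25.1, 17.6 and 108 CPM from day 0 to day 12. Trem1, a receptor that amplifies inflammation, measured 172, 35.1, 48.3, 40 and 194 CPM. Gadd45a, a stress response gene, measured 489, 170.4, 189, 161 and 521 CPM. For each of these 3 genes the values of days 3, 6 and 9 lay below the values of days 0 and 12 with a wide gap. Cd14, the lipopolysaccharide co-receptor, measured 101, 40.7, 41.1, 32.8 and 151 CPM, and Atf3, a stress-induced transcription factor, 23.7, 5.41, 7.23, 7.77 and 16.6 CPM.

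The list of AP-1 and immediate-early genes had 4, 2, 3 and none of 19 tested genes at least 2-fold lower in all members and 3, 2, 3 and none in S100-high members, with medians of -0.29, -0.14, -0.59 and 0.12 in the latter. Fos measured 629, 327, 405, 398 and 754 CPM, Jun 524, 319, 313, 302 and 371 CPM and Dusp1, a phosphatase that shuts down MAP kinases, 493, 192, 260.4, 226 and 659 CPM in all members. Fos and Dusp1 were highest at day 12, Jun at day 0, and all 3 had lower values at days 3, 6 and 9. Junb and Ier2, also of this list, showed no such split, with Junb at 205, 178, 207, 129.6 and 202 CPM. Of the inflammation list, Cxcl2, a chemokine that draws neutrophils, measured 113, 36.6, 43.5, 44.7 and 213 CPM, and Osm, a cytokine of the interleukin 6 family, 61.5, 35.4, 51.5, 40.1 and 111 CPM. Both were highest at day 12. Il1b and Tnf differed little between days, with 37.5 to 51.3 and 21.3 to 27.7 CPM, and Il6, Cxcl1 and Nos2 stayed under 1 CPM in every library.

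The low values of days 3, 6 and 9 were also seen outside Ltf-high cells. In free RNA, Ccl3 measured 276, 82.8, 100.4, 76.7 and 299 CPM, Trem1 139, 41.8, 47.5, 53.6 and 245 CPM and Klf2 1399, 575, 630.2, 585 and 1061 CPM from day 0 to day 12. In Fcnb-high cells with an S100 share of 20% or more, Klf2 measured 846, 212, 184, 212 and 364 CPM, and in the later group 2364, 902, 869, 892 and 1464 CPM. Trem1 measured 76.6, 16.6, 19.8, 20.3 and 55.3 CPM in the Fcnb-high cells and 299.8, 113, 97.5, 116 and 365 CPM in the later group. The low values of days 3, 6 and 9 were therefore shared by all 3 neutrophil groups and by the free RNA. The part of free RNA in the levels of the cells was not tested.

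Mitochondrially encoded genes showed the opposite order, higher at days 3, 6 and 9. Of 11 or 12 tested in S100-high members, 1, 4, 5 and none were at least 2-fold higher at days 3, 6, 9 and 12. mt-Nd1, a subunit of complex I, measured 353, 1154, 1052, 1054 and 382 CPM in all members and 282, 547, 649, 674 and 254 CPM in S100-high members. mt-Nd3, of the same complex, measured 35.2, 79.2, 93.2, 88.4 and 37.9 CPM and was, with Jchain, the immunoglobulin joining chain, 1 of only 2 genes of 3088 (0.0648%) that were 2-fold higher at these 3 days and within 1.5-fold at day 12 in S100-high members. In all members 44 of 3566 genes (1.23%) had that pattern. mt-Nd4l went the other way and was highest at day 0, with 41.1, 20.4, 29.1, 26.7 and 28.8 CPM. Free RNA carried mt-Nd1 at 1339.8, 3527, 5122, 4488 and 1812 CPM, also higher at days 3, 6 and 9 and at a higher level than in the cells. The cells' median share of mitochondrial UMIs was 0.51, 0.725, 0.821, 0.869 and 0.537%.

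Interferon-induced genes were mostly higher at all 4 later days than at day 0, by less than 2-fold. In S100-high members 1 of 13, 1 of 12, 2 of 12 and none of 12 passed 2-fold, with medians of 0.50, 0.49, 0.62 and 0.34. Each of these list medians lay above the median over all genes of that day. Ifitm1, a membrane protein that blocks virus entry, measured 30.9, 61.6, 62.1, 71.4 and 63.9 CPM and was lowest at day 0. Free RNA of Ifitm1 was likewise lowest at day 0, with 152, 232, 192, 228 and 226 CPM. Ifit1, Ifit3 and Mx1, strongly induced by type I interferon, stayed under 7 CPM in every library. Bst2 and Ly6e, which B cells also carry, measured 23, 48.7, 44.2, 51.6 and 19.2 and 62.1, 108, 139, 121 and 47.9 CPM, near their day 0 levels at day 12.

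Against day 0, only Oas3 and Gpr27 differed by 2-fold at all 4 later days, both higher and both among S100-high members (2 of 3088 genes, 0.0648%). No gene of 3566 did so among all members, and none was lower in either. Oas3, a sensor of double-stranded RNA, measured 9, 32.7, 24.2, 27.6 and 24.2 CPM, and Gpr27, an orphan G protein-coupled receptor, 10.4, 27.8, 31.7, 35.8 and 31.7 CPM from day 0 to day 12. In all members their values were 8.8, 26.4, 20.9, 24.7 and 23.1 and 10, 22.4, 27.4, 32.1 and 29.9 CPM. The counts behind the day 0 values were small, with 67 UMIs of Gpr27 over 1201 cells (exact Poisson 95% interval 7.75 to 12.7 CPM) and 59 of Oas3 (6.70 to 11.3 CPM). Both intervals lay below those of every later day. Free RNA was also lowest at day 0 for both, with 11.7, 24.1, 29.6, 19.2 and 27.1 CPM of Oas3 and 5.72, 15.7, 14.4, 17.5 and 21 CPM of Gpr27.

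Day 0 also differed in genes that did not reach 2-fold at every day. In S100-high members 52 of 3088 genes (1.68%) were at least 1.5-fold below the lowest of the other 4 days at day 0, and 8 (0.259%) were 1.5-fold above the highest. In all members these counts were 43 of 3566 (1.21%) and 7 (0.196%). Among those lower at day 0 were Tgfbi, an extracellular matrix protein, with 19.9, 41.7, 43.5, 49.8 and 41.9 CPM, Notch2, a receptor of cell fate decisions, with 17.2, 36.2, 34.7, 36.1 and 34.4 CPM, and Trpm2, a calcium channel opened by oxidants, with 15.4, 31.9, 32.2, 32.7 and 36.9 CPM. Among those higher at day 0 were Tsc22d3, the glucocorticoid-induced leucine zipper gene, with 139, 65, 76.1, 79.8 and 81.2 CPM, and the lymphocyte activation antigen Cd69, with 23.6, 5.75, 8.63, 7.71 and 12.7 CPM. Hist1h1e, a linker histone, measured 34.9, 10.7, 7.09, 12.5 and 16.8 CPM.

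Day 12 had 12 genes (0.389% of 3088) at least 1.5-fold above every other day and 20 (0.648%) below in S100-high members, and 13 of 3566 (0.365%) above and 18 (0.505%) below in all members. Lmnb1, the lamin B1 of the nuclear envelope, measured 135, 126, 129, 98.6 and 257 CPM from day 0 to day 12, and Suco 24.8, 12.8, 13.9, 14.7 and 52.1 CPM. Nlrp3, the inflammasome sensor, measured 11.3, 5.91, 6.01, 10.1 and 25.1 CPM, and Nfkbiz, an inducible regulator of NF-kappaB, 101, 61.1, 76.4, 57.1 and 161 CPM. Lmnb1 lay within a narrow range at the other days, while Suco, Nlrp3 and Nfkbiz had their second highest value at day 0. Free RNA was also highest at day 12 for Lmnb1, Suco, Nlrp3 and Nfkbiz. It carried Lmnb1 at 202, 220, 186, 175 and 382 CPM and Nlrp3 at 63.9, 26.9, 36.5, 33.9 and 89.3 CPM, above the levels in the cells. The part of free RNA in these levels was not tested. The genes lower at day 12 included Cd74 and the class II genes H2-Aa, H2-Ab1 and H2-Eb1, of which H2-Aa measured 31.4, 31, 49.8, 59.4 and 8.23 CPM, and the B cell genes Cd79a (31, 22.2, 50.7, 41.2 and 6.05 CPM), Ly6d and Vpreb3. These belong to B cells and other antigen presenting cells, and they were low in free RNA at day 12 as well, where H2-Aa measured 364, 363, 438, 368 and 103 CPM and Cd79a 296, 210.0, 336, 250.0 and 45 CPM. Rpl12, a ribosomal protein gene, was also lower at day 12, with 147, 161, 178, 191 and 74.2 CPM. No gene stood 1.5-fold apart at day 3 in S100-high members, whereas 1 of 3566 (0.028%) was lower and 77 of 3566 (2.16%) were higher there in all members, led by Myl10 and the surrogate light chain gene Vpreb2 at 248 and 71.5 CPM, against at most 7.33 and 3.99 CPM at the other days. Day 6 had 7 genes above (0.196%) and 1 below (0.028%) in all members and 1 each (0.0324%) in S100-high members, the former the immunoglobulin gene Igkc with 88.5, 67, 403, 257 and 37.8 CPM. Day 9 had 15 above (0.421%) and 4 (0.13%), the latter Igha, Erdr1 and the hemoglobin genes Hbb-bs and Hba-a1, with Igha at 0, 21.2, 3.49, 1103 and 7.41 CPM in all members and 0, 20.6, 2.93, 78.6 and 7.75 CPM in S100-high members.

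Other pathways had few or no genes past 2-fold in S100-high members. Of 14 tested genes of glycolysis none passed at any day, and Gapdh measured 781, 982, 949.8, 956 and 602 CPM, lowest at day 12. Heat shock genes had at most 1 of 9 lower, Dnajb1 at day 9, although 3 of 10 were higher at day 3 in all members. Of iron handling genes, Slc11a1, a metal transporter of phagosomes, was the 1 to pass, at day 12, with 8.54, 19.8, 15.7, 20.1 and 24 CPM. Fth1, the ferritin heavy chain, measured 1743, 1941, 1891, 1866 and 2155 CPM. Mcl1, on which neutrophil survival depends, measured 173, 189, 217, 210.4 and 320.1 CPM and was highest at day 12.

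Compared with Fcnb-high precursors, Ltf-high cells had lower levels of most cycling genes and several primary granule genes and higher levels of most tertiary granule genes. With cells under 20% S100 left out of all 3 groups, 115 of 3849 genes (2.99%) were at least 2-fold higher and 312 (8.11%) at least 2-fold lower in Ltf-high than in Fcnb-high cells in all 5 libraries. With all cells the counts were 98 of 4045 (2.42%) and 101 (2.5%). The rule separated these groups by values of the same cells, so the differences describe the groups and are no test. Elane measured 36.6 to 76.3 CPM in Ltf-high and 376 to 1168 CPM in Fcnb-high cells over the 5 libraries, and Prtn3, proteinase 3, 26.5 to 49.3 against 229 to 591 CPM. Rrm2, a subunit of ribonucleotide reductase, measured 20.8 to 41.4 against 204 to 227 CPM. In no library did these 3 ranges overlap. Of the lists, 26 of 28 cycling genes and 7 of 12 primary granule genes were lower in all 5 libraries.

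The genes higher in Ltf-high than in Fcnb-high cells were led by the tertiary granule genes Mmp8, at 526 to 1277 against 32.7 to 88.9 CPM, and Mmp9, at 505 to 1054 against 44.7 to 117 CPM. Retnlg followed with 8103 to 17330 against 1126 to 2100.5 CPM, then S100a6 with 3299 to 6028 against 527 to 959 CPM. The median log2 ratios of these 4 genes over the libraries were 3.82, 3.36, 3.01 and 2.65. Of the lists, 7 of 9 tertiary granule genes and 10 of 27 late neutrophil genes were higher in all 5 libraries, against 2 of 19 secondary granule genes. The list median of secondary granule genes was 0.24, with Camp and Chil3 lower in Ltf-high cells, at 48876 to 58807 against 67622 to 71607 CPM and 2817 to 4127 against 5547 to 7832 CPM. Fcnb-high cells of any S100 content held a median of 420, 572, 499.5, 418 and 389.5 Ngp UMIs against 192, 174, 154, 143 and 118 in S100-high members. These are raw counts from cells of unequal depth, with median UMIs of 11807 to 12859.5 against 4175 to 5124. They therefore do not compare Ngp levels per UMI.

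Compared with the later neutrophils, Ltf-high cells had more secondary granule and fewer late neutrophil transcripts. Against Retnlg-high Ltf-low cells, 99 of 3549 genes (2.79%) were higher and 240 (6.76%) lower in Ltf-high cells in all 5 libraries at an S100 share of 20% or more, and 67 of 5057 (1.32%) and 467 (9.23%) with all cells. These groups were also separated by values of the same cells, Ltf among them, so the differences describe the groups and are no test. Chil3 measured 2817 to 4127 CPM in Ltf-high and 320.2 to 422 CPM in the later cells, Camp 48876 to 58807 against 4185 to 6312 CPM, and Orm1 87.6 to 174 against 8.91 to 12.8 CPM. Lta4h, the last enzyme of leukotriene B4 synthesis, measured 152 to 191 against 14.8 to 24.8 CPM, and Cebpe 229.7 to 341 against 52 to 84.2 CPM. Each of these 5 genes was at least 3-fold higher in the median library. On the other side, Ccl6 measured 101 to 279 against 2063 to 3490.1 CPM, Il1b, the interleukin 1 beta gene, 38.5 to 51.3 against 405 to 883 CPM, and Ifitm1 30.9 to 71.4 against 682 to 811 CPM. Of 28 late neutrophil genes 23 were lower in Ltf-high cells in all 5 libraries and none was higher, while 6 of 19 secondary granule genes were higher and none lower. Mmp8 and Mmp9 were higher in the later cells in every library, at 1043 to 1588 and 1019.5 to 1474 CPM in the later cells.

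**Figure D4:**
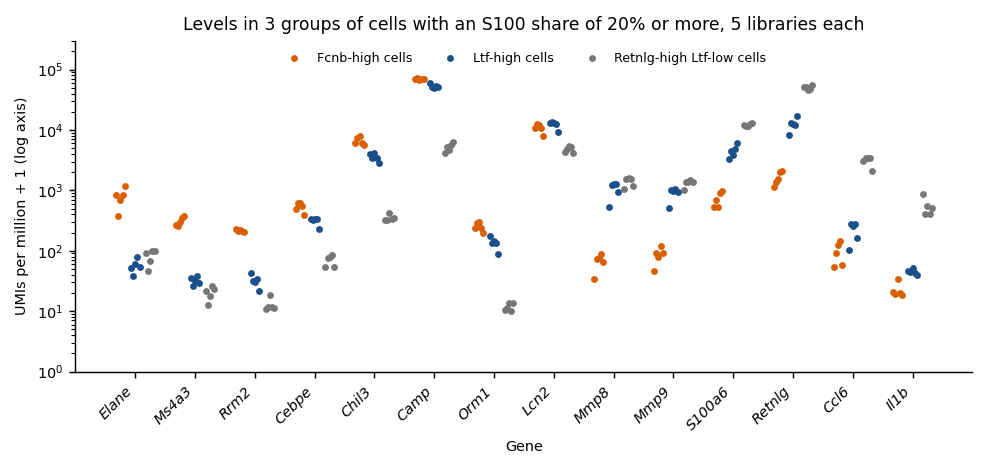
Level (CPM + 1, log axis) of 14 genes in the 3 neutrophil groups, 1 point for each of the 5 libraries, in cells with an S100 share of 20% or more. Elane, Ms4a3 and Rrm2 are highest in Fcnb-high cells, Camp, Chil3 and Cebpe are low in the Retnlg-high Ltf-low cells, and Ccl6 and Il1b are highest there.

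A similar order of genes was seen within the Ltf-high cells themselves. S100-high members were split by their Retnlg content, a gene the limits did not use, into cells with under 20, 20 to 80 and 80 or more Retnlg UMIs per 10000. The cuts were set after the levels had been seen. The lowest bin held 43.9, 25.2, 24.5, 24.2 and 13.5% of them from day 0 to day 12, and the highest bin 33.8, 52.4, 48.6, 51.2 and 61.7%. Day 0 had the largest share of Retnlg-low cells and day 12 the smallest. Free RNA, at the Retnlg levels given above, lay beyond the lower cut in every library and was likewise lowest at day 0 and highest at day 12, so the share of a bin cannot be read apart from it. The bins differed in depth, with median UMIs of 5606 to 6487 in the lowest and 3646 to 4261 in the highest.

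From the lowest to the highest bin, Camp measured 65506 to 73114, 56547 to 65665 and 31508 to 37538 CPM over the 5 libraries, and Orm1 194 to 272, 125 to 162 and 30.7 to 47.8 CPM. Cebpe measured 345 to 504, 294 to 375 and 156 to 221 CPM, and Top2a 70.2 to 113, 17.4 to 39.9 and 12.5 to 25.2 CPM. Orm1 did not overlap between any 2 bins. Camp overlapped slightly between the lowest and the middle bin, but declined across the bins within every library. Mmp8 had the opposite order, with 123 to 346, 567 to 1156 and 1254 to 2095 CPM, as did Ccl6, with 51 to 106, 71.4 to 166 and 209 to 473 CPM. Ltf itself was highest in the middle bin, at 7058 to 8281 CPM against 5638 to 7758 and 5592 to 6113 CPM, and Ly6g measured 762 to 1172, 1103 to 1545 and 982 to 1197 CPM. Elane stayed at 32.9 to 77.3, 31.5 to 73.1 and 41.8 to 77.6 CPM, with no order among the bins.

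**Figure D5:**
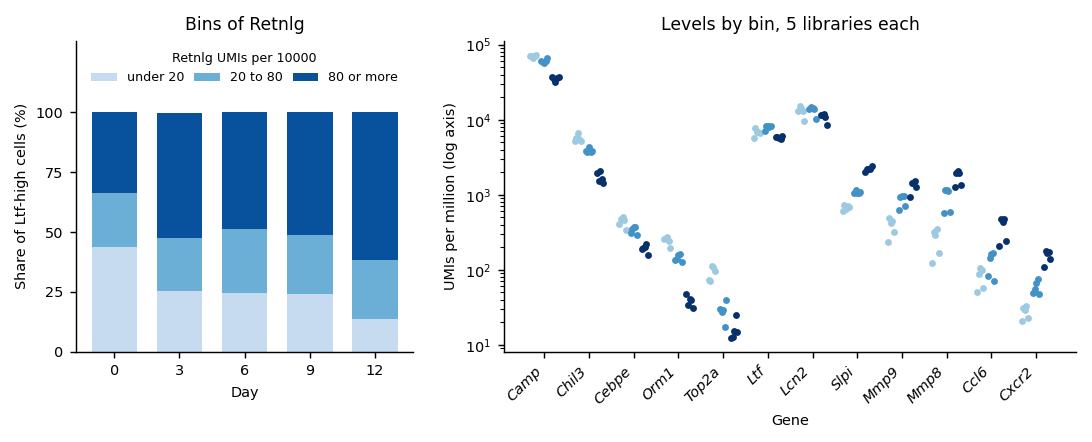
Share of S100-high Ltf-high cells in 3 bins of Retnlg content at each day (left, percent) and level (CPM, log axis) of 12 genes in the 3 bins, from pale for the lowest to dark for the highest, 1 point for each of the 5 libraries (right). The lowest bin goes from 43.9% at day 0 to 13.5% at day 12. Camp, Chil3, Cebpe and Orm1 decline across the bins while Mmp9, Mmp8, Ccl6 and Cxcr2 increase. Top2a is highest in the lowest bin, but at day 9 it is higher in the highest bin than in the middle bin.

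Some differences between days were small within a bin and others were not. Within the highest bin, Mmp8 measured 1254, 1956, 2095, 1960.2 and 1353 CPM from day 0 to day 12, and within the lowest bin 123, 323, 293, 346 and 169 CPM. Days 0 and 12 were thus close to each other and below the other 3 days within both bins, while over all members day 12 lay nearer to days 3, 6 and 9. Orm1 measured 257, 262, 272, 245 and 194 CPM in the lowest bin and 47.8, 34.3, 40.4, 39.9 and 30.7 CPM in the highest, a narrower spread between days than over all members. Trem1 kept its low values of days 3, 6 and 9 in the highest bin, with 258, 64.7, 76, 55.9 and 270.5 CPM, as did Klf2, with 1322, 506, 488, 554 and 877 CPM, and Ccl3, with 163, 22.2, 39.6, 22.6 and 147 CPM. mt-Nd1 was again higher at days 3, 6 and 9 than at days 0 and 12, with 249.8, 558, 632, 599 and 205 CPM.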

How the data were processed

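Bone marrow of 5 mice was measured by 10x Genomics 3' v2 single-cell RNA sequencing, 1 library for each day. The authors made the UMI counts with Cell Ranger on mm10, and the count matrices were used as deposited, for all barcodes. The annotation release is not given in the sources used here. Every deposited column was mapped to a sample, and 0 columns were left unused. Spliced counts, flow cytometry and PCR data were not analysed here.

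Barcodes with at least 500 UMIs and at most 10% mitochondrial UMIs were kept as cells. Doublets were not removed, and a setting without the highest 5% of Scrublet scores was tried. Members and gene lists were chosen with earlier results of these data known, and the S100 limit, the days 3, 6 and 9 pattern and the Retnlg bins were chosen after seeing the data. With 1 library for each group no test was run. Member UMIs were summed per library, scaled to counts per 1000000 (CPM) and compared as log2 ratios with a pseudocount of 5 and a minimum of 20 CPM. Shares have exact binomial and counts exact Poisson 95% intervals, and the interval of a ratio of shares is from the log scale, all for counting error only. Named were markers of the rule, 2 to 4 genes of a list by level or ratio, up to 15 genes each way that passed 2-fold at all later days or in all 5 libraries, and up to 10 for each day. Other genes were chosen after their values were seen. Scripts ran in Python 3.11.15 with numpy 2.4.6, scipy 1.17.1, pandas 2.3.3, scanpy 1.11.5 and matplotlib 3.10.9, and TMM factors came from edgeR 4.0.16 in R 4.3.3. The fold calculation was tested on simulated data. Sequences are from RefSeq GRCm38.p6 and positions from GENCODE vM21, matched by symbol.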

Additional observations from a re-analysis of the deposited data

Results flagged for a closer look

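Barcodes that met the 4 gene limits but lay outside the UMI or mitochondrial limit were in no comparison. They numbered 32 at day 0, 24 at day 3, 25 at day 6, 43 at day 9 and 40 at day 12, above the 3 counts that a count of 0 allows. Of these, 19, 16, 11, 25 and 23 had over 10% mitochondrial UMIs, with median mitochondrial shares of 13.3 to 15.1%. Among the latter, 7, 9, 7, 12 and 7 had an S100 share of 20% or more. The others held under 500 UMIs.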

How the results depend on the processing

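No paired analysis was possible because each day has 1 mouse and 1 library, and for the same reason no replicate could be left out. Among the genes tracked across settings, none whose ratio passed 2-fold changed sign. Smaller ratios did: the median log2 ratio of days 3, 6 and 9 went from -0.19 to 0.01 (limits of 10) and 0.05 (S100-low members left out) for Lcn2, from -0.09 to 0.01 and 0.03 for Cebpe, and with TMM from 0.03 to -0.39 for Ly6g and from 0.22 to -0.20 for S100a6. The signs for Mki67 and, at day 12, for Ccl3, Gadd45a and mt-Nd1 also turned in at least 1 setting. At day 6 and day 9, TMM left more genes lower than higher. The share ratio to day 0 stayed above 1 in every setting, but at day 6 with thinned cells it was so close to 1 that no difference could be read. With cells thinned to 2000 UMIs before the limits it was 1.131, 1.008, 1.134 and 1.398 at days 3, 6, 9 and 12, with no Fcnb UMI allowed 1.252, 1.42 and 1.955 at days 6, 9 and 12, with a mitochondrial limit of 5% 1.409 at day 9, and with limits of 10 UMIs 1.628 at day 12. The counts of genes past 2-fold against day 0 moved more. A pseudocount of 1 gave 152 at day 9 and 37 at day 12, a minimum of 50 CPM gave 185, 78, 60 and 3, and no minimum gave 465 at day 3. TMM factors gave 172 at day 3, 104 of them higher and 68 lower against 284 and 18 in the main scaling, and 72 at day 6 (32 higher, 40 lower, against 123 and 11). At days 9 and 12 the TMM splits were 27 to 47 and 4 to 13, against 78 to 16 and 8 to 10. A total without the 20 highest genes also gave 172 (104 higher, 68 lower) and 72 (41 higher, 31 lower), and at days 9 and 12 splits of 29 to 42 and 7 to 13. A mean over cells gave 61, 51 and 55 at days 3, 6 and 9, and members thinned to 2000 UMIs 77 and 80 at days 3 and 6. Limits of 10 gave 56, 39 and 58 at days 3, 6 and 9, members under 20% S100 left out 27, 36 and 56, and under 30% left out 30, 37 and 54; the last 2 settings were chosen after seeing the data. Against Fcnb-high cells the lower genes numbered 156 with a pseudocount of 1, 215 with thinned cells and 312 with cells under 20% S100 left out of all 3 groups. Against Retnlg-high Ltf-low cells the higher genes numbered 41 with a minimum of 50, and the lower genes 206 with thinned cells and 240 with cells under 20% S100 left out. Apart from the settings that left out cells by content or changed the number of genes tested, the cause was not tested. Of the values for single genes, 191 moved and 409 did not. Of the share ratios and counts of genes, 40 moved and 44 did not. The depth limits genes under about 20 CPM, and Ifit1, Ifit3, Il6 and other genes near 0 cannot be read as absent.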

Other observations

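Within S100-high members, cells with 1 or 2 Fcnb UMIs made up 26.3, 22.9, 19.7, 20.1 and 17.5% from day 0 to day 12, and the rest had none. Over the 5 libraries the former held more Camp, at 60003 to 67932 CPM against 44840 to 54099 CPM, more Orm1, at 150 to 262 CPM against 68.6 to 129 CPM, and more Top2a, at 72.5 to 98.2 CPM against 19.1 to 35.7 CPM. Mmp8 was lower in them in every library, at 162 to 658 CPM against 715 to 1531 CPM. Elane did not differ in order, at 39.5 to 78.4 CPM against 35.3 to 75.5 CPM. Fcnb belonged to the limits that chose the cells, and deeper cells more often show a UMI, so these values are a description.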
